A study of Mus musculus with 16 samples.

Results

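Loss of the pyruvate dehydrogenase complex (PDC) in memory CD8+ T cells was examined by comparing the open chromatin of 4 TPdh-/- TM libraries with that of 4 WT TM libraries. These are 8 of the 16 ATAC-seq libraries of the series, chosen by the genotype and cell type in their titles, and the comparison used their autosomal peaks, 395452 of the 628947 in the series. ATAC-seq uses a transposase to place sequencing adapters into accessible DNA, and a peak is a place where the resulting fragments pile up. TPdh-/- mice were made by crossing B6.129P2-Pdha1tm1ptl/J mice with B6.Cg-Tg(Cd4-cre)1Cwi/BfluJ mice, so that Pdha1 is deleted in cells that have expressed the Cd4 promoter, which in the thymus includes the precursors of CD8+ cells. WT cells are labelled TPdh+/+. Per the methods, mice of both sexes were used, and OT-I cells, whose receptor recognises an ovalbumin peptide, were activated with that peptide and then cultured with IL-15 to give memory (TM) cells or with IL-2 to give effector (TE) cells. TM here means cells from this culture and not memory cells taken from an infected animal. Each library is a bulk population, and nothing in the labels says whether libraries of a group came from separate mice, so p-values measure the spread between these libraries, which may be technical.

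PDC oxidises pyruvate to acetyl-CoA in the mitochondrial matrix and so joins glycolysis to the tricarboxylic acid (TCA) cycle. Pdha1, on the X chromosome, encodes the alpha subunit of its E1 component. Acetyl-CoA is also the acetyl donor for histone acetylation, a modification that is associated with open chromatin, and memory CD8+ T cells are known for oxidative metabolism. The question was which regions and gene promoters were open in cells of one genotype and not of the other.

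Depth, taken here as background coverage and not as the number of reads sequenced, differed between the genotypes and limits every count below. WT TM libraries 1 to 4 held 53626, 23453, 13039 and 34263 autosomal peaks, and TPdh-/- TM libraries 1 to 4 held 63790, 84359, 58421 and 64501. Background coverage, the average fragment depth across the genome, was 0.355, 0.354, 0.572 and 0.364 in WT TM and 0.220, 0.261, 0.230 and 0.186 in TPdh-/- TM. Neither measure overlapped between genotypes, with a log2 difference of 1.29 for peaks and -0.85 for coverage (two-sided exact permutation p = 0.029 for both, the smallest that 4 against 4 allows, and 0.129 adjusted over 9 measures). Summits of 3 fragments were listed in TPdh-/- TM only, because the lowest pileup listed was 3 in each of its libraries and 4, 4, 5 and 4 in WT TM, so a weak site could enter the TPdh-/- lists and not the WT lists. Genotype and depth cannot be told apart. WT TM 2 and WT TM 3 stood apart from the other WT TM libraries by low promoter content. Without them the log2 difference was 0.647 for peaks and -0.69 for coverage (exact permutation p = 0.133 for both), and with summits of at least 5 fragments asked of every peak the numbers of peaks differed by 0.0950 (exact permutation p = 0.829). This cut is not scaled to coverage and falls harder on TPdh-/- TM. Peaks of 4 or fewer fragments were 63.17% to 69.34% of its lists and 0% to 31.15% of WT TM lists.

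**Figure D1:**
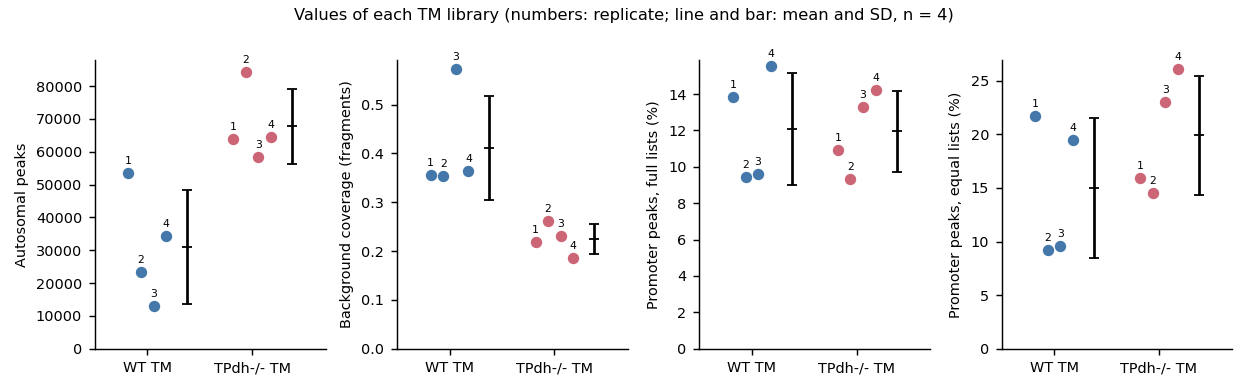
Number of autosomal peaks, background coverage in fragments per base, and percentage of peaks at promoters in full lists and in lists of 13039 peaks, with 1 point per library and the replicate number beside it; the line and bar are the mean and SD of 4 libraries. Peak number and coverage do not overlap between the genotypes, whereas promoter shares do, and WT TM 2 and 3 have the lowest promoter shares of the equal lists (9.18% and 9.59%).

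Labels were checked against the lists. Pdha1 (ENSMUSG00000031299.10, chromosome X, 160122209 to 160138413, GRCm38) was covered, with 5000 bp to each side included, by a peak in WT TM 1 and in TPdh-/- TM 2, 3 and 4, at pileups of 5, 3, 6 and 6 fragments. A peak list does not show a missing exon, so the genotype could not be checked. Of 20 T cell lineage genes, 7, 3, 0 and 2 had a promoter peak in WT TM 1 to 4 and 5, 5, 7 and 8 in TPdh-/- TM 1 to 4. Cd8b1, which encodes a chain of the CD8 coreceptor, had pileups of 4 and 9 in WT TM 1 and 2 and of 6, 5 and 10 in TPdh-/- TM 2 to 4. Cd8a had a promoter peak in TPdh-/- TM 4 alone, and WT TM 3 held no promoter of the list, so lineage could not be checked in that library. Of markers of other cells, 5 natural killer genes had no promoter peak in any TM library, 9 B cell genes had 3, 0, 0 and 0 in WT TM and 0, 0, 0 and 2 in TPdh-/- TM, and 12 myeloid genes had 0, 1, 0 and 0 in WT TM and 1, 3, 1 and 0 in TPdh-/- TM. The part of other cells in the results was not tested.

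Sequences of the strongest gained regions and of the lost regions are shown first, so that their base composition can be read beside the values. A region is a stretch of merged peaks from the 8 libraries, and it was called gained when all 4 TPdh-/- TM and no WT TM library held it and lost when the reverse was true. Below are the bases around the strongest summit of the gained regions ranked 1 and 2 and of the strongest one away from promoters, namely the promoters of Siah2 (chr3:58690841-58691041) and Eef1a1 (chr9:78481725-78481893, with 32 exon bases left out) and an Nfkb1 intron (chr3:135665858-135666058). They are followed by those of the 3 lost regions, in a Pcnx2 intron (chr8:125779015-125779215), between genes on chromosome 4 (chr4:64497932-64498132) and in a Lmbrd1 intron (chr1:24759583-24759783). All are on the forward strand of GRCm38, from RefSeq, with each CG dinucleotide in capitals.
Siah2: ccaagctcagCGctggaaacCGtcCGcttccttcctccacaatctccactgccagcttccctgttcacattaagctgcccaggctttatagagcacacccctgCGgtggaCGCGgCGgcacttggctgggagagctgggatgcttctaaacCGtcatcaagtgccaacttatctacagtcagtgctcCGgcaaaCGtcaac
Eef1a1: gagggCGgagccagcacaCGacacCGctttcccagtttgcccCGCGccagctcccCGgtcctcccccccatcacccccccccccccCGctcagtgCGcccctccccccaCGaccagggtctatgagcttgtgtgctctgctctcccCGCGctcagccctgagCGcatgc
Nfkb1: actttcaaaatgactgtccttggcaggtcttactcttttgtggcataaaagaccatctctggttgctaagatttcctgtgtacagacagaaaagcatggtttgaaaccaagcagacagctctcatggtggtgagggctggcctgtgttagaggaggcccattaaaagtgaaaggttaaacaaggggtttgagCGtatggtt
Pcnx2: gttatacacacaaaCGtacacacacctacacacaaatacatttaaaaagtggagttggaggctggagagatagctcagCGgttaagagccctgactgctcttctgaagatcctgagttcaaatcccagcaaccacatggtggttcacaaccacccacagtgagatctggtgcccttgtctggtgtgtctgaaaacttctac
Chromosome 4: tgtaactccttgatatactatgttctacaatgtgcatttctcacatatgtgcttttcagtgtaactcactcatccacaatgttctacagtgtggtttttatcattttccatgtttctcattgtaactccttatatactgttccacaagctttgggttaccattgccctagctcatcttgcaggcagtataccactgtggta
Lmbrd1: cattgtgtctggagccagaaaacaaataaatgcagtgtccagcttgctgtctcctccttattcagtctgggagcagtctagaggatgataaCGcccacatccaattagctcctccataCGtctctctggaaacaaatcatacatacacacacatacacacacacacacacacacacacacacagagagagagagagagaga
The stretches at Siah2 and Eef1a1 hold 10 and 12 CG dinucleotides in these stretches, at 56.7% and 72.2% GC, whereas the Nfkb1 intron holds 1 and the lost regions hold 2, 0 and 2. Not every gained promoter is like the first pair, since that of Card6, ranked 4, has 48.8% GC and 1 CG dinucleotide around its summit. The summits in Pcnx2 and on chromosome 4 lie in masked repeats, and the Lmbrd1 stretch ends in a run of CA and GA repeats.

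In the full lists, 101 of 349818 regions were gained (0.0289% of those tested) and 3 were lost (0.000858%). No region passed when library numbers were compared by Fisher's exact test, after Benjamini-Hochberg adjustment over all regions, since the smallest p that 4 against 4 allows is 0.029, and 104 regions had an unadjusted p under 0.05 (smallest adjusted p = 1). Without WT TM 2 and 3, 117 regions were gained and 1002 were lost. The requirement is then unequal, since a lost region needs 2 WT TM libraries and a gained region still needs 4 TPdh-/- TM libraries, so these 2 counts cannot be compared with each other. Leaving out WT TM 1, 2, 3 or 4 alone, which eases the requirement by 1 library, gave 228, 111, 106 and 182 gained and 29, 38, 53 and 24 lost regions, and leaving out a TPdh-/- TM library gave 222 to 312 gained regions. With a summit of at least 5 fragments asked of every peak, 40 were gained and 3 lost. The strongest gained region, by the mean −log10 q of its 4 peaks, was the promoter of Siah2, a ubiquitin ligase that takes part in the response to low oxygen (chromosome 3, 58690757 to 58692408). Its summit pileups were 5, 15, 27 and 14 fragments in TPdh-/- TM 1 to 4, with no peak in any WT TM library. A region was called a promoter by any of its peaks, so not all 4 summits need lie near the start. Next came the promoter of Eef1a1, a translation elongation factor (chromosome 9, 78481633 to 78482190), at 6, 8, 10 and 23 fragments. The promoter of Pcnx4, a membrane protein gene, followed on chromosome 12 at 9, 8, 21 and 9 fragments. In each of these regions the highest library stood well above the lowest, and it was TPdh-/- TM 3 at Siah2 and Pcnx4 and TPdh-/- TM 4 at Eef1a1.

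Ranks 4 and 5 were Card6 and Nfkb1. Card6, which encodes a caspase recruitment domain protein, had promoter pileups of 8, 11, 9 and 15 fragments (chromosome 15, 5108140 to 5109324). Nfkb1, which encodes the p105 and p50 subunits of NF-kB, had an intronic region 1841 bp from a start with pileups of 7, 5, 6 and 20 fragments (chromosome 3, 135665548 to 135666208). The latter had no WT TM peak within 1000 bp. Ranks 6 to 10 were the promoters of Rmnd1, a mitochondrial translation factor (5, 14, 12 and 5 fragments), Tmem267 (7, 8, 8 and 12), Hint3, a nucleotide hydrolase (9, 7, 14 and 9) and Trim24, a chromatin reader (10, 8, 8 and 7), and an intergenic site on chromosome 1 (189608724 to 189609998, nearest start Gm38122 at 31169 bp) with 9, 6, 8 and 16 fragments. Eef1a1, Rmnd1, Trim24 and the chromosome 1 site each had a WT TM peak within 1000 bp in 1 library, and so did 22 of the 101 gained regions in at least 1. Counted by gene, the promoters of Eef1a1 and Trim24 had a WT TM 1 peak, of 7 and 5 fragments, and Eef1a1 had 6 in TPdh-/- TM 1.

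The 3 lost regions lay outside promoters. The Pcnx2 intron (chromosome 8, 125779071 to 125779237) had pileups of 27, 24, 49 and 25 fragments in WT TM 1 to 4 and no peak in any TPdh-/- TM or TE library. Its mean −log10 q was 33.9, against 13.3 for Siah2. The chromosome 4 site (64497854 to 64498059, nearest start Gm23950 at 53302 bp) had 9, 10, 8 and 5 fragments. It also had a peak in WT TE 2 and in 3 TPdh-/- TE libraries. The Lmbrd1 intron (chromosome 1, 24759587 to 24759891) had 9, 5, 7 and 7 fragments and no TE peak. Lmbrd1 encodes a lysosomal exporter of cobalamin. Summits of 2 of the 3 lost regions lay in masked repeats, against 35.4% of all regions.

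**Figure D2:**
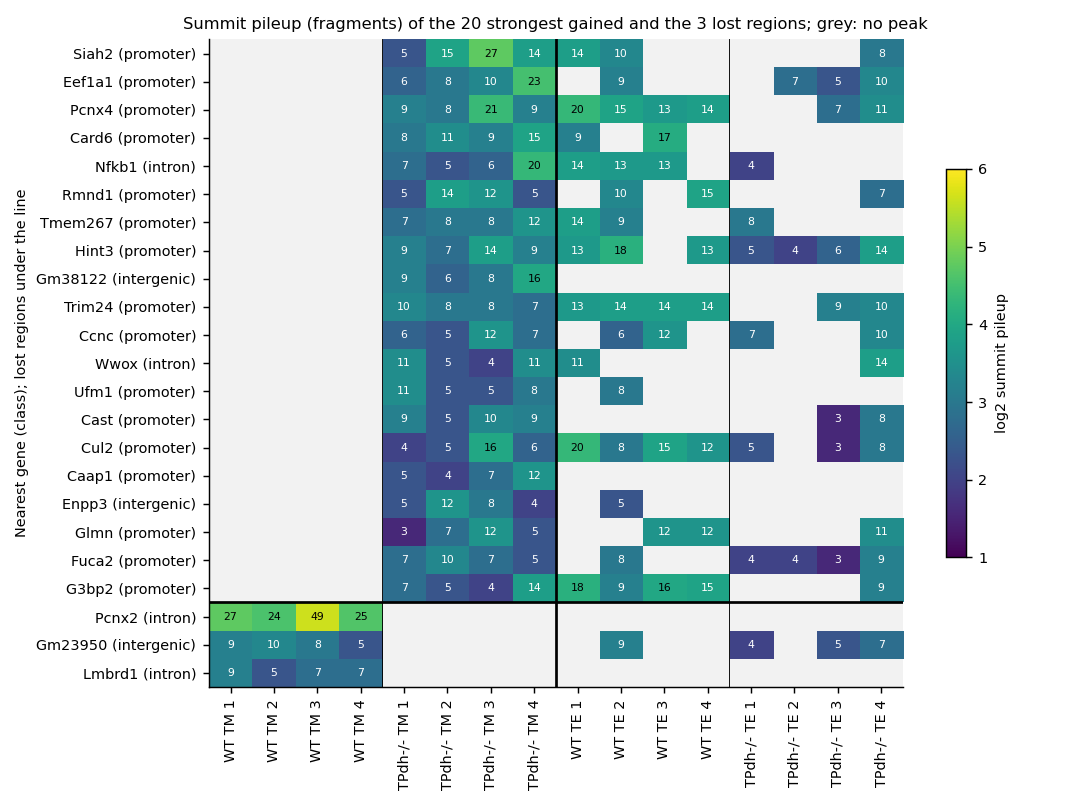
Summit pileup in fragments, printed in each cell and coloured on a log2 scale, of the 20 gained regions with the highest mean −log10 q and of the 3 lost regions, in the 8 TM and 8 TE libraries; grey cells have no peak. Pcnx2 reaches 49 fragments in WT TM 3 and has no peak in the other 12 libraries, whereas gained promoters such as Pcnx4, Hint3 and Trim24 also have peaks in TE libraries of both genotypes.

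By genome annotation, gained regions were mostly promoters. Peaks were assigned to a promoter if the summit lay no more than 1000 bp from an annotated transcription start (GENCODE M21). A region was called a promoter if any of its peaks was, so its strongest summit need not lie near a start. Of the 101 gained regions, 69 were promoters (68.3%), 19 intronic and 13 intergenic, against 8.99% promoters over all regions and 6.11% of the autosomes. Their base composition was high in GC, with a median of 58.7% over the 101 gained regions, against 43.8% over all regions. The median was 66.2% at gained promoters and 47.8% at the other 32 gained regions. Masked repeats held the summit of 15.8% of gained regions and 35.4% of all regions.

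The promoter share of gained regions was close to that of regions held by 2 libraries of each genotype. Of these 630 regions, 69.0% were promoters, with a median GC content of 61.2% and 25.6% of summits in masked repeats. Of the 694 held by 3 TPdh-/- TM libraries and 1 WT TM library the share was 71.6%, and of the 75 held by 1 and 3 it was 44.0%. The 115 regions held by all 8 libraries were promoters in 42.6% of cases, and those held by a single library in 7.48%. On the WT side, 19 of the 135 regions held by 3 or 4 WT TM and no TPdh-/- TM library were promoters (14.1%), against 371 of the 756 held by 3 or 4 TPdh-/- TM and no WT TM library (49.1%). These shares are descriptions and rest on WT TM 2 and 3 in part, since a region held by 3 WT TM libraries must be held by at least 1 of these 2.

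**Figure D3:**
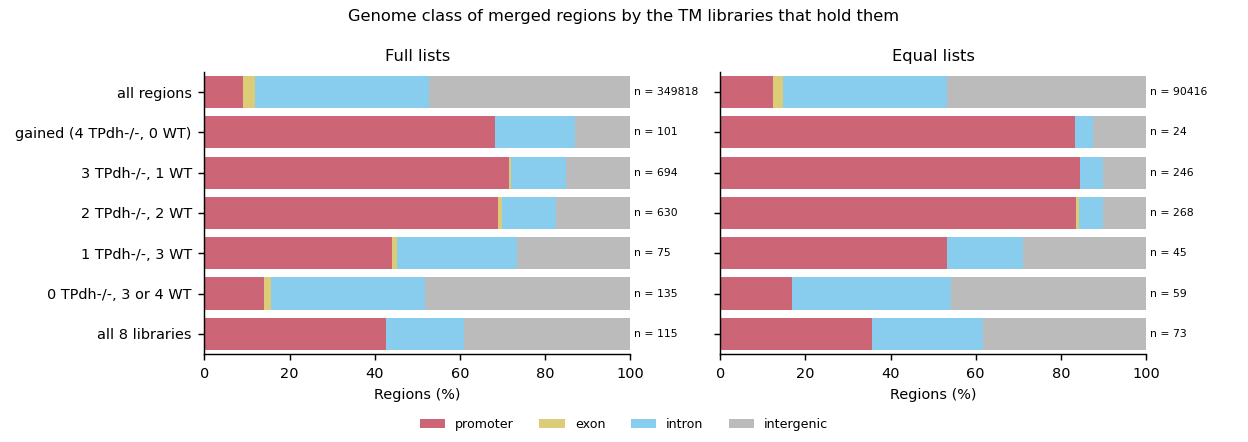
Percentage of merged regions at promoters, exons, introns and between genes, by how many TPdh-/- TM and WT TM libraries held them, in full lists and in equal lists, with the number of regions at the right. Gained regions are promoters in 68.3% and 83.3% of cases, close to the regions held by 2 libraries of each genotype (69.0% and 83.6%) and far from all regions (8.99% and 12.5%).

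Over whole lists, differences in promoter, intron and intergenic shares between genotypes were within the spread between libraries. Exon shares were not tested and overlapped, at 2.86%, 2.55%, 2.04% and 2.36% in WT TM and 2.99%, 3.10%, 2.81% and 2.91% in TPdh-/- TM. Promoter peaks made up 13.8%, 9.41%, 9.59% and 15.5% of WT TM lists and 10.9%, 9.35%, 13.3% and 14.2% of TPdh-/- TM lists, so that the TPdh-/- TM mean minus the WT TM mean was -0.142 percentage points (exact permutation p = 0.914). Intron shares differed by -0.471 points (exact permutation p = 0.686) and intergenic shares by 0.112 points (exact permutation p = 1). In lists cut to the 13039 peaks with the highest −log10 q, the length of the shortest list, promoter shares were 21.7%, 9.18%, 9.59% and 19.5% in WT TM and 16%, 14.5%, 23.1% and 26.1% in TPdh-/- TM. The difference of 4.91 points was within the spread (exact permutation p = 0.314) and was -0.702 points without WT TM 2 and 3 (exact permutation p = 0.933). Also within the spread were those of -2.60 points for introns (exact permutation p = 0.229) and -2.32 points between genes (exact permutation p = 0.371), which were -0.677 and 1.28 points without WT TM 2 and 3. The full-list promoter difference was -2.73 points without these libraries (exact permutation p = 0.267). Part of each equal list is set by ties, since 4331 of the 5885 peaks that share the last −log10 q of WT TM 2 were in its list, and 2558 of 5342 in TPdh-/- TM 1. With all 8 libraries, the 6 adjusted p-values of these shares over the 9 measures were 0.669 or 1.

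Summit strength of the gained regions was low in absolute terms and above the middle of each list. Median pileups were 6, 6, 6 and 7 fragments in TPdh-/- TM 1 to 4, where the median of all peaks was 4 in each, and the median gained peak lay at the 83.6th, 85.2nd, 82.2nd and 82.9th percentile of −log10 q in its list. The weakest of the 4 pileups was 3 fragments in 26 gained regions and 4 in a further 39. The lists of WT TM had lowest pileups of up to 5 fragments, and 36 of the 101 gained regions had at least 5 in every TPdh-/- TM library. At least 10 fragments in some library were found for 41 gained regions, and the highest value was 33, at a Gm10717 region in TPdh-/- TM 3. All 4 WT TM libraries had a peak within 1000 bp of that region. Its strongest summit lay in a masked repeat, and its mean fold enrichment was 2.80. Gained promoters and other gained regions were close in strength, with median mean pileups of 6.5 and 6. In equal lists the median pileup over whole lists was 8, 6, 6 and 7 in WT TM and 6, 7, 7 and 7 in TPdh-/- TM (log2 difference 0.01, exact permutation p = 1).

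TE libraries were not used to call gained regions and gave a separate view of them. Of the 101, 85 had a peak in at least 1 TE library, 73 in WT TE and 70 in TPdh-/- TE. The share held was 49.5%, 59.4%, 14.9% and 30.7% in WT TE 1 to 4 and 13.9%, 7.92%, 33.7% and 46.5% in TPdh-/- TE 1 to 4, so the genotypes overlapped. Of all regions, between 0.518% and 4.21% were held by a TE library. Regions held by 2 TM libraries of each genotype had TE shares of 49.8%, 55.4%, 14.8% and 37.5% in WT and 19.5%, 8.10%, 40.6% and 46.2% in TPdh-/-. Both sets thus lay close in each TE library, with the widest gap in TPdh-/- TE 3 (33.7% against 40.6%). Trim24 and Pcnx4 were open in all 4 WT TE libraries.

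Lists of equal length kept fewer calls. Among 90416 regions from the 13039 strongest peaks of each library, 24 were gained (0.0265% of those tested) and 2 were lost (0.00221%), and 26 had an unadjusted Fisher's exact p under 0.05 (smallest adjusted p = 1). Without WT TM 2 and 3, 30 were gained and 329 lost, under the unequal requirement given above. Leaving out 1 library gave 27 to 79 gained and 3 to 18 lost regions, and lists of 2270 peaks gave 5 gained. Of the 24, 12 overlapped a region gained in the full lists, and the other 12 had a peak in 1 or 2 full WT TM lists. Promoters made up 20 of the 24 (83.3%), against 12.5% of all regions and 83.6% of the 268 regions held by 2 libraries of each genotype. New among the 10 strongest were an intergenic site on chromosome 1 (97580123 to 97580904) with 9, 12, 16 and 13 fragments and 5 in WT TM 1, the promoter of Hdhd2, a hydrolase, with 12, 9, 12 and 9 fragments and 5 in WT TM 4, and the promoter of Ndufa5, a subunit of respiratory complex I, with 9, 6, 14 and 13 fragments and 5 in WT TM 1. Siah2, Eef1a1, Pcnx4, Card6, Tmem267, Hint3 and the chromosome 1 site near Gm38122 stayed among the 10. The intronic regions of Pcnx2 and Lmbrd1 were lost again.

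A set of 13 short motifs was searched on both strands within 100 bp of the strongest summit. In the 69 gained promoters, the NRF1 motif (GCGCANGCG) was found in 10 (14.5%), the SP/KLF motif (GGGGCGGGG) in 9 (13%), the ETS motif (CCGGAAG) in 7 (10.1%) and the partial CTCF motif (CAGNNGGCG) in 7 (10.1%). Over all promoter regions these shares were 3.15%, 5.87%, 4.46% and 4.54%, and over the promoter regions held by 2 libraries of each genotype 12%, 18.2%, 15.9% and 10.1%. In the 32 gained regions away from promoters, the RUNX motif (TGTGGTT) was found in 4 (12.5%), and the AP-1 (TGANTCA), TCF/LEF (CTTTGAT) and STAT (TTCNNNGAA) motifs in 3 each (9.38%), against 4.65%, 5.61%, 3.53% and 6.41% of all such regions. The IRF motif (GAAANNGAA) was in 2 (6.25%), under its share of 7.47%, and AP-1 was in 0 of the 69 gained promoters, against 4.34% of all promoter regions and 2.99% of those held by 2 libraries of each genotype. RUNX letters were also present at 2 of the 3 lost regions, Pcnx2 and the chromosome 4 site. Hits of different motifs can share bases, a match is a description of letters and not of binding, and the counts are small.

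Promoters were then counted by gene. Of 20807 protein-coding genes on autosomes, 121 had a promoter peak in all 4 TPdh-/- TM and no WT TM libraries (0.582%) and 1 had the reverse (0.00481%). That gene was Prr12, which encodes a nuclear proline-rich protein, at 6, 8, 7 and 8 fragments in WT TM. Genes that share a start were each counted. The rule asked for a summit within 1000 bp of a start in each library. Siah2, Eef1a1 and Trim24, whose regions were gained, were not among the 121. Without WT TM 2 and 3 the counts were 151 and 144, under the same unequal requirement, and with summits of at least 5 fragments 32 were gained. A less strict rule, at least 3 more libraries of one genotype than of the other, took 976 genes to TPdh-/- TM (4.69%) and 29 to WT TM (0.139%). A gene with 3 more WT TM libraries must be held by WT TM 2 or 3, which held few promoters. In equal lists the strict counts were 23 (0.111%) and 0 (0%). Any protein-coding promoter was held at 27.9%, 8.20%, 4.84% and 22.4% in WT TM 1 to 4 and 25.5%, 26.7%, 29.9% and 34.7% in TPdh-/- TM 1 to 4, so that WT TM 2 and 3 lay far under the others and WT TM 1 and 4 near them.

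The following genes were picked from the 121 after their values were seen. Stat5b, a transcription factor downstream of IL-2 and IL-15 receptors, had promoter pileups of 6, 5, 5 and 3 fragments in TPdh-/- TM 1 to 4. Ptpn2, a phosphatase that restrains cytokine and antigen receptor signals, had 8, 5, 8 and 7. Pik3cg, a phosphoinositide kinase subunit, had 3, 7, 3 and 9, and Rps6kb1, the S6 kinase downstream of mTOR, had 3, 7, 4 and 3. Cytip, which regulates lymphocyte adhesion, had 8, 5, 8 and 17. Of WT TE and TPdh-/- TE libraries, 0 and 0 held Stat5b, 3 and 2 Ptpn2, 0 and 4 Pik3cg, 1 and 2 Rps6kb1, and 0 and 1 Cytip. Stat5b, Pik3cg and Rps6kb1 each had a pileup of 3 in some library, the lowest that the TPdh-/- TM lists hold. The lowest value of Ptpn2 and of Cytip was 5.

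Gene lists were read by the share of members with a promoter peak in each library. In 21 of 26 lists the TPdh-/- TM mean was above the WT TM mean and in 1 it was below, against 18 and 6 without WT TM 2 and 3. In none did the 4 TPdh-/- TM libraries all lie above, or all below, the 4 WT TM libraries. Over all protein-coding genes, 43.9% were held by more TPdh-/- TM and 11.2% by more WT TM libraries, and every count below is to be read against these shares. They include 6843 of 20807 genes with no promoter peak in any TM library. In the TCA cycle, glycolysis and histone acetylation lists, 0 of 24, 2 of 21 and 1 of 30 genes had no such peak. A list with few such genes can thus exceed the shares without standing out among genes that had a peak. Over all protein-coding genes the means differed by 13.4 points, and by 4.05 points without WT TM 2 and 3. Olfactory receptors, a family that T cells do not use, went from 6.39%, 2.93%, 1.60% and 2.93% in WT TM to 8.16%, 9.05%, 5.86% and 8.25% in TPdh-/- TM. Apart from the Zfp and olfactory receptor families, the other 24 lists hold 598 genes, of which none was held by 3 more WT TM than TPdh-/- TM libraries. At least 3 more TPdh-/- TM libraries held 43 of them (7.19%, beside 4.69% of all protein-coding genes). Of the 43, 9 still met this rule in equal lists, and 18 had a peak in WT TM 1 or 4. The genes named below as held by 3 more are from the full lists.

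**Figure D4:**
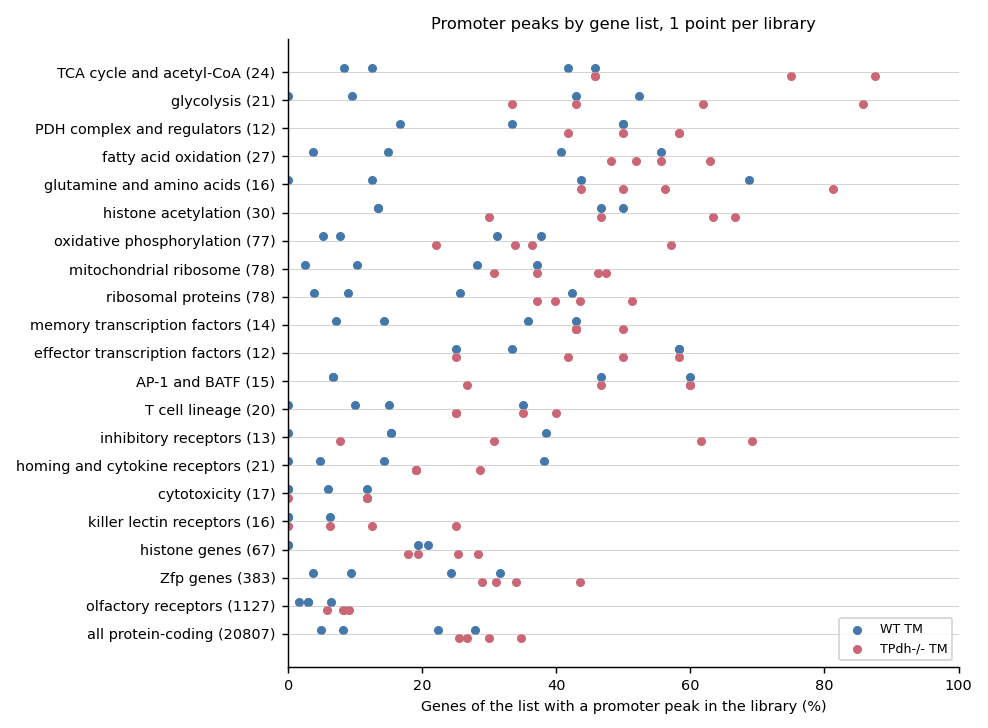
Percentage of the genes of each list that had a promoter peak, with 1 point per library (blue WT TM, red TPdh-/- TM) and the number of genes found in parentheses. WT TM 2 and 3 are at the left in most lists, and WT TM 1 and 4 lie among or near the TPdh-/- TM libraries, as for all protein-coding genes (22.4% and 27.9% against 25.5% to 34.7%).

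Among the partners of PDHA1, the promoter of Pdhx, which encodes the E3-binding protein of the complex, was held by 4 TPdh-/- TM libraries (5, 7, 14 and 10 fragments) and by WT TM 4 (5 fragments). Pdhb, the E1 beta subunit, was held by 4 and 3 libraries, and Mpc2, a subunit of the mitochondrial pyruvate carrier, by all 8. Of 12 genes for PDC subunits, its kinases and phosphatases and the carrier, 6 were held by more TPdh-/- TM and 1 by more WT TM libraries. The difference in means was 14.6 points, close to the 13.4 points of all protein-coding genes, and 2.08 points without WT TM 2 and 3.

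Genes of the TCA cycle and of acetyl-CoA and citrate supply, such as Acly and Acss2, showed the largest difference in means of the metabolic lists. Of 24, 21 were held by more TPdh-/- TM and 2 by more WT TM libraries, with a median difference of 1.5 libraries. The share held was 45.8%, 12.5%, 8.33% and 41.7% in WT TM and 45.8%, 45.8%, 75.0% and 87.5% in TPdh-/- TM. The difference in means was 36.5 points, and 19.8 points without WT TM 2 and 3. Idh2, a mitochondrial isocitrate dehydrogenase, had pileups of 4, 4 and 12 in TPdh-/- TM 2 to 4 and no WT TM peak. Sdha, the catalytic subunit of succinate dehydrogenase, had 5, 8 and 6 in the same libraries, and Sdhc, a membrane subunit, had 3, 5 and 7 in TPdh-/- TM 1, 3 and 4. Sucla2, a subunit of succinyl-CoA synthetase, had 4, 5, 6 and 5 in TPdh-/- TM and 6 in WT TM 1.

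Other routes of fuel use had the same direction with smaller margins once WT TM 2 and 3 were left out. Of 21 glycolysis genes, 15 were held by more TPdh-/- TM and 0 by more WT TM libraries, with a difference in means of 29.8 points and of 8.33 points without WT TM 2 and 3. Slc2a1, the glucose transporter GLUT1, had 5, 13 and 6 fragments in TPdh-/- TM 2 to 4 and no WT TM peak, and Pfkfb3, which makes an activator of phosphofructokinase, had 4, 3 and 3. Eno1, an enolase, had 10, 3, 6 and 6 and a WT TM 4 peak of 9. Of 27 fatty acid oxidation genes, 16 and 3 were held by more libraries of TPdh-/- TM and WT TM. Their difference in means was 25.9 points, and 6.48 points without WT TM 2 and 3. Crot, a peroxisomal carnitine acyltransferase, had 9, 11, 13 and 21 fragments in TPdh-/- TM and 8 in WT TM 4. Acad8, an acyl-CoA dehydrogenase of valine breakdown, had 6, 7, 6 and 11 and 5 in WT TM 1, and Eci2 had 3, 6, 4 and 3 and 7 in WT TM 1. Of 16 glutamine and amino acid genes, 9 and 3 were held by more libraries of TPdh-/- TM and WT TM, and those with at least 3 more were Asns, Got1, Slc38a2 and Slc3a2. The latter pair take part in amino acid import. The difference in means of this list fell from 26.6 points to 1.56 points without WT TM 2 and 3.

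Respiratory chain and ribosome genes also had higher means in TPdh-/- TM. Of 77 oxidative phosphorylation genes, 40 were held by more TPdh-/- TM and 11 by more WT TM libraries, and the difference in means was 16.9 points, or 2.92 points without WT TM 2 and 3. Ndufb4, of complex I, had 5, 6, 7 and 10 fragments in TPdh-/- TM and none in WT TM, and Uqcrc1, of complex III, had 7, 3, 3 and 4. Ndufa5, Ndufs6 and Cox7a2 were held by 3 more TPdh-/- TM libraries, and Ndufs6 shares its promoter peaks with Mrpl36. Of 78 mitochondrial ribosome genes, Mrps9 was held by 4 and 0 libraries at 9, 6, 8 and 4 fragments, and Mrpl36, Mrpl50, Mrps14, Mrps18a and Mrps36 by 3 more. Of 78 cytosolic ribosomal protein genes, 8 were held by 3 more TPdh-/- TM libraries, among them Rpl18, Rpl21, Rpl37 and Rplp2. Of 383 zinc finger genes named Zfp, a family of mostly repressive DNA-binding proteins, 18 were held by at least 3 more, beside 4.69% of all protein-coding genes, and the difference in means was 17.2 points, or 6.46 points without WT TM 2 and 3. The differences in means of the mitochondrial and cytosolic ribosome lists were 20.8 and 22.8 points, and 7.69 and 8.97 points without WT TM 2 and 3.

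Histone acetylation enzymes and readers had 17 of 30 genes held by more TPdh-/- TM and 4 by more WT TM libraries. Kat6b, a histone acetyltransferase, had promoter pileups of 11, 10, 16 and 20 in TPdh-/- TM and 17 in WT TM 1, and Hdac11, a deacetylase, had 3, 3 and 6 in TPdh-/- TM 1 to 3. The difference in means was 20.8 points, or 3.33 points without WT TM 2 and 3. Of 67 histone genes, Hist1h1c, a linker histone, was the one held by 3 more TPdh-/- TM libraries, and the difference in means was 12.7 points, or 2.61 points without WT TM 2 and 3.

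Of 14 transcription factors linked to memory or quiescence, 7 were held by more TPdh-/- TM and 3 by more WT TM libraries, with a difference in means of 19.6 points and of 5.36 points without WT TM 2 and 3. Satb1, a chromatin organiser of T cells, had 4, 4, 5 and 9 fragments in TPdh-/- TM and none in WT TM. Bach2, a repressor that restrains effector genes, had 3, 6, 4 and 3 and 7 in WT TM 4. Of 12 effector factors, 3 and 2 were held by more libraries of TPdh-/- TM and WT TM and none by 3 more. Their means were equal (difference 0), and without WT TM 2 and 3 the TPdh-/- TM mean lay below WT TM by -14.6 points. Of 15 AP-1 and related factors, 8 and 1 were held by more libraries, and the difference in means went from 18.3 points to -5.00 points without WT TM 2 and 3. Whether the lists differ from each other was not tested.

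Of 13 inhibitory receptors and linked factors, 9 were held by more TPdh-/- TM and 1 by more WT TM libraries, with Tigit at 5, 4, 5 and 4 fragments in TPdh-/- TM and 10 in WT TM 1, and Tox, a factor of exhausted T cells, at 4, 6 and 5 in TPdh-/- TM 2 to 4. Their difference in means was 25 points, and 15.4 points without WT TM 2 and 3. Of 20 T cell lineage genes, Cd28 (3, 8 and 8) and Lck (3, 5 and 4), a costimulatory receptor and a receptor-proximal kinase, were held by 3 and 0 libraries, and the difference in means was 16.2 points, or 8.75 points without WT TM 2 and 3. Of 17 cytotoxicity genes, 10 had no promoter peak in any TM library, 4 were held by more TPdh-/- TM and 1 by more WT TM libraries, and the difference in means was 4.41 points, with equal means without WT TM 2 and 3. Gzma and Gzmb, both granzymes, had 1 peak each, of 4 fragments, in TPdh-/- TM 1 and 2, Ctsw, a cathepsin, had 1 of 4 in WT TM 1, and Prf1, perforin, had 6 in WT TM 4 and 7 in TPdh-/- TM 3. Of 21 homing receptor and cytokine genes, 8 and 3 were held by more libraries of TPdh-/- TM and WT TM, and none by 3 more. Their difference in means turned from 7.14 points to -4.77 points without WT TM 2 and 3. Of 16 killer lectin receptor genes, 11 had none in any TM library and 5 were held by more TPdh-/- TM libraries, with a difference in means of 9.38 points, or 7.81 points without WT TM 2 and 3, and Klrd1 at 6 in WT TM 1 and at 7 and 3 in TPdh-/- TM 2 and 3.

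Genes that the study examined in TM cells were read across the gene and the 5000 bp to each side. Cxcr5, a chemokine receptor (chromosome 9, 44511787 to 44561877), had peaks in 2 WT TM libraries, with highest pileups of 6 and 10, and in 4 TPdh-/- TM libraries, with 4, 4, 3 and 10. Ccl5, a chemokine (chromosome 11, 83525778 to 83530518), had 1 peak each in WT TM 1 and 2, of 5 and 4 fragments, and in TPdh-/- TM 1, of 7. Il10ra, the IL-10 receptor alpha chain (chromosome 9, 45253837 to 45269149), had peaks in 3 libraries of each genotype, at highest pileups of 4, 9 and 8 in WT TM and of 4, 3 and 11 in TPdh-/- TM. Groups overlapped for all 3 genes, and at these pileups a difference of a few fragments was not detectable.

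Regions held by all 8 libraries allowed summit strength to be compared directly. There were 115, and their pileups were centred on the median of each library on the log2 scale and tested with limma. None was stronger in TPdh-/- TM (0% of those tested) and 3 were weaker (2.61%), at a limma adjusted p under 0.05, and 27 had an unadjusted p under 0.05. The weakest in TPdh-/- TM was an intergenic site on chromosome 18 (3004662 to 3005202) with 42, 31, 50 and 31 fragments in WT TM and 16, 11, 19 and 10 in TPdh-/- TM (log2 difference -1.39, SE 0.33, limma adjusted p = 0.00957). An intron site on chromosome 3 (99981124 to 99981394) had 18, 24, 41 and 24 against 12, 9, 12 and 8 (-1.25, SE 0.34, limma adjusted p = 0.0230). An intron site on chromosome 17 (13590326 to 13590748) had 26, 19, 31 and 20 against 16, 7, 6 and 12 (-1.23, SE 0.34, limma adjusted p = 0.0230). Next were a Gm10717 promoter region on chromosome 9 (225, 273, 387 and 226 against 122, 157, 118 and 131) and an intergenic site on chromosome 8 (6, 9, 10 and 9 against 3, 3, 5 and 6), both at -0.96 (limma adjusted p = 0.0952). At the first 3 sites the pileups of the genotypes did not overlap, and the nearest annotated starts were 10869, 27164 and 21717 bp away. No region passed when WT TM 2, TPdh-/- TM 4 or WT TM 2 and 3 together were left out (4 at an unadjusted p under 0.05 in the last case), or when pileups were divided by background coverage, under which the median over all 115 regions moved from -0.12 to 0.64.

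At the top of the other direction were promoters. Fhit, a dinucleotide hydrolase gene, had 9, 5, 10 and 13 fragments in WT TM and 13, 11, 20 and 23 in TPdh-/- TM (log2 difference 0.96, SE 0.33, limma adjusted p = 0.0952). Zfp446, Megf9, a Gm10717 site and Hmgb1, a chromatin protein, followed at 0.86, 0.80, 0.85 and 0.78 without passing the test. By class, 39 of 49 shared promoters had a higher centred pileup in TPdh-/- TM, with a median difference of 0.28, whereas 18 of 21 intronic and 37 of 45 intergenic regions had a lower one, with medians of -0.49 and -0.46. These directions depend on centring. Divided by background coverage instead, 47 promoters, 19 intronic and 35 intergenic regions were higher in TPdh-/- TM, with medians of 1.05, 0.27 and 0.31, so that the intronic and intergenic medians turned while promoters kept the highest. Centred and without WT TM 2 and 3 the promoters split 27 and 22 with a median of 0.11, and the intronic and intergenic medians were -0.38 and -0.31. Of the 115 regions, 60% had their strongest summit in a masked repeat, and the highest pileup of a library in them was 2554 to 4222 fragments. The chromosome 18 site had the lowest coordinates of the shared regions on its chromosome. Both Gm10717 sites lay in a cluster of shared regions on chromosome 9, from 3000511 to 3035462, where a library reached 4222 fragments. These sites went in opposite directions, at -0.96 and 0.85. Whether repeats account for the signal there was not tested.

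**Figure D5:**
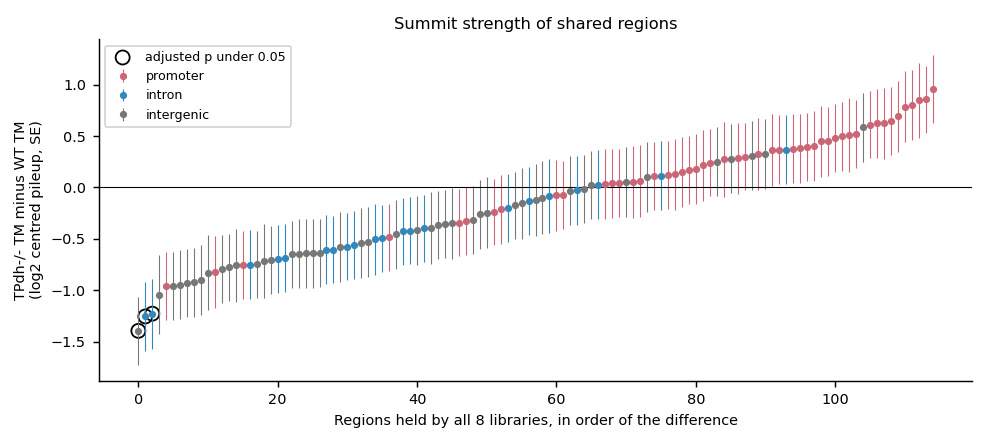
Difference in log2 summit pileup, TPdh-/- TM minus WT TM after centring each library on its median, with its standard error, for the 115 regions held by all 8 libraries, in order of the difference and coloured by genome class; circles mark an adjusted p under 0.05 by limma. The 3 circled regions are at -1.39, -1.25 and -1.23, and most promoters are in the right part of the plot, whereas with pileups divided by background coverage 101 of the 115 differences are above 0.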

How the data were processed

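The authors trimmed reads with Trimmomatic, aligned the pairs to GRCm38 with BWA 0.7.17, kept pairs that mapped to 1 place and lay outside blacklisted regions, and called peaks per library with MACS2 2.2.7.1 on whole fragments (study's methods and submitters' processing notes). Blacklist filtering lowers but does not remove signal at repeats. Whether reads were shifted for the transposase and whether duplicates were removed is not given in the sources used here. The authors deposited, with each peak, a score, a fold enrichment over local background (a ratio), a −log10 p-value and a −log10 q-value, and a summit position. Sequencing reads were not analysed here. The paper's methods give a minimum number of read pairs but no number for each library. Depth here means background coverage, 0.186 to 0.572 fragments per base, and not the number of reads sequenced.

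The summit pileup of each peak was solved from its fold enrichment and p-value, within 0.001 of the deposited −log10 p for at least 99.9% of TM peaks, and the lowest background of a library was its coverage. In WT TM 3, 7.15% of peaks had a second solution that close. Peaks that overlapped or touched were merged into regions. Equal lists took 13039 peaks per library by −log10 q, then fold enrichment, then a fixed random order. Genotypes were compared on per-library values with a two-sided exact permutation test over 70 arrangements, adjusted by Benjamini and Hochberg over 9 measures. Shared regions were tested with limma 3.58.1 in R 4.3.3 on log2 pileup. Other steps used Python 3.11.15 and scipy 1.17.1 and were tested on simulated data. Genes came from GENCODE M21.

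The comparison and the gene lists were chosen with earlier results of these data known. Named were the 10 strongest gained and lost regions of each list type, 5 shared regions in each direction, listed genes held by at least 3 more libraries of one genotype, 3 genes of the study and up to 4 examples per list.

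Replicate numbers were not used to pair libraries. Deviations of libraries with the same number from their group means, over 2364 bins of 1 Mb, correlated at 0.007, 0.011, -0.018 and -0.019. X and Y peaks were left out, apart from the check at Pdha1.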

Additional observations from a re-analysis of the deposited data

Results flagged for a closer look

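In groups of 4 libraries, 5 of 36 pairs of a group and a measure had a library past Dixon's 95% limit. The nominal rate of 1 in 20 assumes continuous values and does not apply to tied medians such as these. WT TM 3 was 3 of these, with a background coverage of 0.572 fragments per base, a median pileup of 6 and 0% of peaks at 4 or fewer fragments (these measures are not independent of each other). TPdh-/- TM 2 had a median GC content of 43.8% over its peaks, against 44.3% in the other 3 libraries. TPdh-/- TM 1 had a median pileup of 6 in its equal list, against 7 in the other 3.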

How the results depend on the processing

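Of 210 alternatives tried over the results, 108 kept the direction and the side of the threshold, or a count within 1.5 times. Shares of peaks by genome class and the median pileup of equal lists passed the threshold under none. Apart from intron shares in equal lists, which kept their sign, each changed sign under at least 1 alternative. The alternatives without WT TM 2 and 3 together, without tied peaks and with a fold enrichment of at least 5 were chosen after seeing the data.

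Replicate numbers did not pair the libraries (all correlations under 0.1). With a replicate block and sign flips, whose smallest p is 0.125, the log2 difference was 1.29 for peaks and -0.85 for coverage (exact permutation p = 0.125 for both), and 3 shared regions were weaker and 0 stronger. Peaks differed by 1.20 with a −log10 q of at least 2 (exact permutation p = 0.0857) and by 0.0950 with summits of at least 5 fragments (exact permutation p = 0.829). Leaving out 1 library, where the smallest p is 0.0571, gave 0.937 to 1.62 for peaks and -0.93 to -0.68 for coverage.

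Promoter shares in full lists differed by 0.349 points with a −log10 q of at least 2 and 4.90 points with summits of at least 5 fragments, and intergenic shares by -0.0785 and -2.47 points. Without WT TM 2 and 3 the difference was 0.647 for peaks and -0.69 for coverage on the log2 scale (exact permutation p = 0.133 for both, the smallest that 2 against 4 allowed here), -2.73, 0.142 and 2.25 points for promoters, introns and intergenic peaks in full lists, -0.702 and 1.28 points for promoters and intergenic peaks in equal lists, and -0.15 for their log2 median pileup, and no shared region was weaker (0). Leaving out 1 library gave -1.03 to 1.01 points for promoters, -1.05 to 0.179 for introns and -0.628 to 1.19 for intergenic peaks in full lists, and -0.0457 to 0.0927 for the log2 median pileup of equal lists.

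Summits of at least 5 fragments left 40 gained regions and 32 gained promoters. Fold enrichment of at least 5 left 25 gained and 1 lost regions and 29 gained and 0 lost promoters. Without WT TM 2 and 3, lost regions numbered 1002, or 329 in equal lists, and lost promoters 144. Starts within 2500 bp gave 182 gained and 4 lost promoters. Lists of 2270 peaks gave 5 gained regions, and equal lists without tied peaks 1 lost region. No shared region was weaker (0) after division by background coverage or with fold enrichment in place of pileup.

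Leaving out 1 library eases the requirement to 3 and 4 libraries. Gained regions then numbered 106 to 312 and lost regions 3 to 53, or 27 to 79 and 3 to 18 in equal lists, gained promoters 127 to 320 and lost promoters 1 to 13, with the most lost without WT TM 3 in full lists. Weaker shared regions numbered 0 to 7 and stronger ones 0 to 1, the single stronger one without WT TM 1 or WT TM 4.
Depth limits the weakest calls, since a summit of 3 or 4 fragments in TPdh-/- TM is at the edge of what these lists hold.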
